A study of Mus musculus with 24 samples.

Results

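NRF2, encoded by Nfe2l2, is the transcription factor that switches on genes for glutathione synthesis and antioxidant enzymes, and KEAP1 is the sensor that holds it down. This family was followed here as 10 genes: Nfe2l2, Keap1, Gclc, Gclm, Nqo1, Hmox1, Txnrd1, Srxn1, Gsr and Osgin1. They were chosen by gene symbol from the array annotation. Each of the 10 was represented by 1 probe set carrying that symbol alone, among 23410 probe sets with a symbol and 19938 genes with a probe set of their own. The cells were primary cultures from fetal C57Bl/6 mouse brain at embryonic day 14, from the midbrain (mesencephalon) or the cortex, kept in expansion medium for 48 h or 13 d in 3% O2 or 21% O2. The 3% O2 gas mixture held N2 and CO2 besides. All 8 combinations of region, time and oxygen had 3 arrays each, 24 in all, with no genetic change and no drug in any group. The series title calls the cells neural stem cells, whereas the sample labels call them primary cultures of the region. The sources used here do not say whether the 3 samples of a group came from separate animals or cultures, so the p-values measure the spread between these samples only.

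Under basal conditions KEAP1 binds NRF2 and directs it to degradation by a CUL3 ubiquitin ligase. When electrophiles or oxidants modify KEAP1, NRF2 accumulates, pairs with a small MAF protein and binds antioxidant response elements in its target genes, where BACH1 can compete with it as a repressor. NRF2 activity is set largely through its protein, so the Nfe2l2 mRNA does not measure it. In the brain, glia rather than neurons are the cells best known for a strong NRF2 response. Several targets also answer to other factors: Hmox1 is regulated by BACH1 through heme and by hypoxia and inflammatory signals, and the cystine transporter gene Slc7a11 is a target of the stress factor ATF4 as well.

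The promoter windows below are those of the members in which the core of the antioxidant response element was found, and they show where that core lies. RefSeq windows on build GRCm38.p6, from 250 bases before to 50 bases after a start site, were found for 7 of the 10 members, 9 windows in all. Gclc, Hmox1 and Gsr were not among the windows used here. On both strands, the letters TGACNNNGC occurred in 4 of the 9 windows, each of a different gene, and in 12.4% of all 32851 RefSeq windows of that length. A looser form, TGANNNNGC, which includes every match of the first, occurred in 7 of the 9 windows and in 41.3% of all windows. Each sequence is given 5′ to 3′ on the strand of its gene, and capitals mark TGANNNNGC or its reverse complement.
Nfe2l2, chr2:75704614-75704913, minus strand: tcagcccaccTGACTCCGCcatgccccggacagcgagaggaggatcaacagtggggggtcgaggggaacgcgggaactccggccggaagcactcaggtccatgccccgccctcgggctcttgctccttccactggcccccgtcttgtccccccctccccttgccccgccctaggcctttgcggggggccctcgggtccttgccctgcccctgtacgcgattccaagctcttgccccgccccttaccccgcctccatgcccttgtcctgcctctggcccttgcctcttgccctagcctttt
Srxn1, chr2:152105274-152105573, plus strand: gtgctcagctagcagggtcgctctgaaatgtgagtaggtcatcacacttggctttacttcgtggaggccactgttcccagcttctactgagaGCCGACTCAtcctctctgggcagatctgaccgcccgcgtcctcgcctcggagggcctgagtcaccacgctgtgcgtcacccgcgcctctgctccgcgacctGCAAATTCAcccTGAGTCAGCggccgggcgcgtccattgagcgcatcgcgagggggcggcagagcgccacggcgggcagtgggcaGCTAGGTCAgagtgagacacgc
Gclm, chr3:122245307-122245606, plus strand: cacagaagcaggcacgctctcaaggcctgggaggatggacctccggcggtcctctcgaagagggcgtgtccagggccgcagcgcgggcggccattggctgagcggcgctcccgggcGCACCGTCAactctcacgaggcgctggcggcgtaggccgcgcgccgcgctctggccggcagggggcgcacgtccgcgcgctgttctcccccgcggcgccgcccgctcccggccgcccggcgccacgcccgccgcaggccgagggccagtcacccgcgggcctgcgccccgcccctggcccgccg
Txnrd1, window 2, chr10:82858956-82859255, plus strand: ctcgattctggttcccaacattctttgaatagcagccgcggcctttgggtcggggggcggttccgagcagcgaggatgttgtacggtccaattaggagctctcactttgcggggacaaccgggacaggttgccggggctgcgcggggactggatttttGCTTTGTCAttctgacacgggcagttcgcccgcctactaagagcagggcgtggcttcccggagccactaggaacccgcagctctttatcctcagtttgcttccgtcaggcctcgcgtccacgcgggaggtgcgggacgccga

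The stricter core began at -240 in Nfe2l2, at -134 in Gclm, at -92 in the second of 3 Txnrd1 windows, and at 29 in Srxn1, counted from the start site. Srxn1 had 4 matches of the looser form, at -158, -57, -45 and 29, the most of any member window. Keap1 had the looser form at -61, Osgin1 at -99 and the third Txnrd1 window at -84. The Nqo1 window held neither form. The hypoxia response element core ACGTG occurred in the windows of Gclm, at -67, and Keap1, at -223, and in 19.6% of all windows. These matches are letters in a window, not bound sites, and elements that lie farther from the start were not searched.

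Values are the authors' normalized log2 intensities, so a difference of 1 is a doubling, and levels of different genes are not compared with each other. Array medians lay between 7.35 and 7.42, and arrays of a group correlated at 0.986 to 0.999. Replicate 1 of cortex 48 h in 21% O2 stood furthest from its group. The labels place the 6 midbrain 13 d arrays in array run 1 and the other 18 in run 2, so each oxygen comparison lies within 1 run, but midbrain 13 d levels and the run cannot be told apart. The averaged log2 levels of 15 neuron markers were 11.59 to 11.64 in midbrain 48 h, 10.88 to 10.95 in cortex 13 d, 8.46 to 8.99 in cortex 48 h and 8.00 to 8.21 in midbrain 13 d. The averaged levels of 12 neural stem and radial glia markers ran from 9.87 to 11.08 over all arrays and were lowest in midbrain 48 h. In these marker lists the cortex 48 h arrays therefore sat nearer to midbrain 13 d than to midbrain 48 h, and cortex 13 d nearer to midbrain 48 h in the neuron markers. The cortex times are used as labelled, and whether these labels were exchanged was not tested. An exchange would turn each order of times given for the cortex. It would also make each comparison of midbrain with cortex at the same labelled time, in response or level, one of unlike times. Midbrain 13 d with cortex 48 h, and midbrain 48 h with cortex 13 d, would then be the pairs of like time. In neither did a member's response difference pass in the fit of all arrays, where 6.58% and 0.0214% of all probe sets passed. Under some other settings Nqo1, Nfe2l2 and Srxn1 passed in the first pair. Fewer cells of a type and less RNA per cell cannot be told apart in such cultures.

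In 3% O2, 6 of the 10 members were higher and 1 was lower in midbrain at 13 d, and 5 were higher and 0 lower in cortex at 48 h. The shared risers were Gclc, Gclm, Hmox1, Srxn1 and Gsr, by 1.43- to 2.23-fold in midbrain 13 d and 1.37- to 2.33-fold in cortex 48 h. Over all tested probe sets, 11.2% were higher and 12.7% lower in midbrain 13 d, and 6.25% were higher and 6.08% lower in cortex 48 h. No member passed in midbrain 48 h, where 0.701% of probe sets were higher and 0.491% lower, nor in cortex 13 d, where 0.543% were higher and 0.0641% lower. In cortex 13 d all low-oxygen arrays of Nfe2l2, Gclm, Nqo1, Txnrd1 and Gsr lay below those at 21% O2. No member had them all above, and groups were apart either way for 17.6% of all probe sets there. At an unadjusted p under 0.05, 2 members would have passed in midbrain 48 h and 0 in cortex 13 d. No share of all probe sets is given at that unadjusted threshold, here or below, so such counts cannot be read as responses. The median member response was 0.48 in midbrain 13 d and 0.33 in cortex 48 h on the log2 scale, beside -0.01 and 0.00 for all probe sets, and -0.04 in each of the other cultures. A call means a Benjamini-Hochberg adjusted p under 0.05 in limma's moderated test, two-sided, over all 23410 probe sets, and every response is 3% O2 minus 21% O2.

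**Figure D1:**
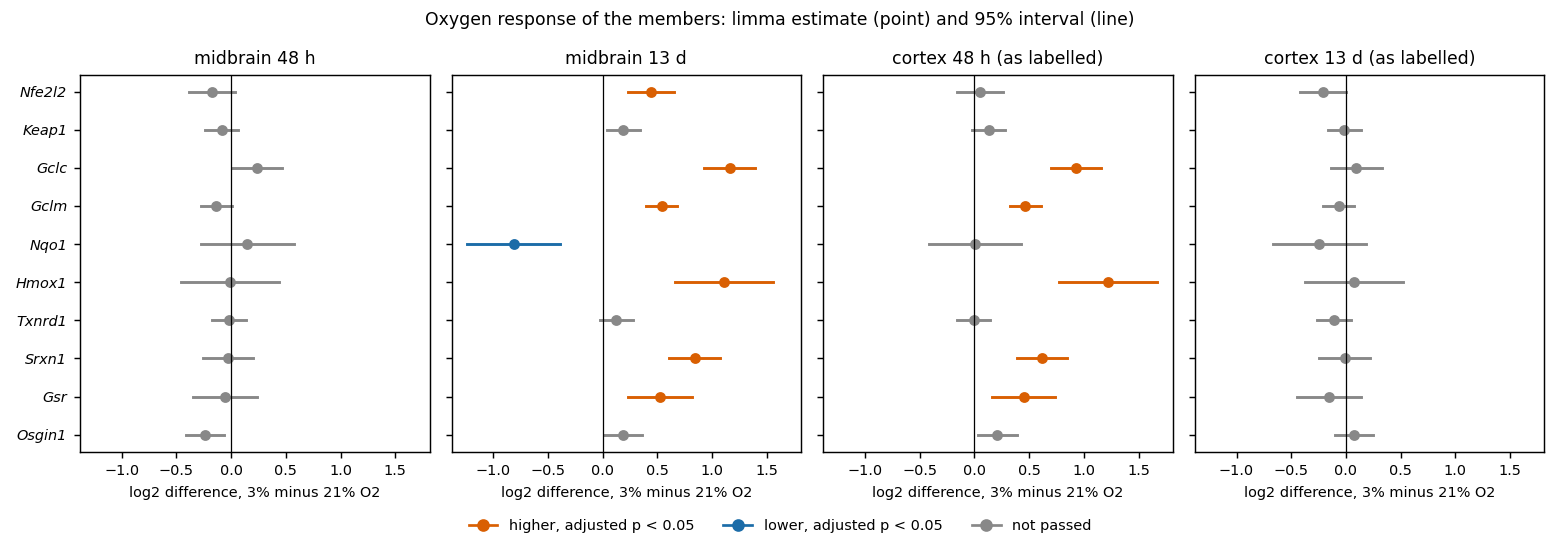
Oxygen response of each member (log2 difference, 3% minus 21% O2, x axis) in the 4 cultures, with limma estimates as points and 95% intervals as lines, 3 arrays per group. Gclc, Gclm, Hmox1, Srxn1 and Gsr lie to the right of 0 in midbrain 13 d and cortex 48 h, Nqo1 lies at -0.81 in midbrain 13 d, and no member passes the test in midbrain 48 h or cortex 13 d.

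The catalytic and modifier subunits of glutamate-cysteine ligase, the rate-limiting enzyme of glutathione synthesis, are encoded by Gclc and Gclm. Gclc (probe set 10587266) read 10.85, 11.05 and 10.82 in midbrain 13 d at 3% O2, against 9.72, 9.65 and 9.86 at 21% O2. The cortex 48 h values of Gclc at 3% O2 were 11.40, 10.87 and 10.93, against 10.25, 10.07 and 10.09. All arrays at low oxygen lay above all arrays at 21% O2 in both cultures. Groups apart in either direction were found for 40.5% of all probe sets in midbrain 13 d and 22.8% in cortex 48 h. The rise was 1.16 ± 0.11 (SE, n = 3 against 3), 2.23-fold, in midbrain 13 d (limma adjusted p = 2.28e-07) and 0.93 ± 0.11, 1.90-fold, in cortex 48 h (limma adjusted p = 1.68e-05). Gclc read 9.96, 10.08 and 10.07 at 3% O2 and 9.88, 9.61 and 9.92 at 21% O2 in midbrain 48 h. There too the groups did not overlap, which held for 18.8% of all probe sets in that culture, but the difference of 0.23 ± 0.11 did not pass (limma adjusted p = 0.326). Cortex 13 d gave Gclc values of 10.18, 10.14 and 10.24 at 3% O2 and 10.18, 10.05 and 10.05 at 21% O2, which overlap. In that culture 17.6% of all probe sets had groups apart.

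Gclm (probe set 10495763) rose with Gclc in midbrain 13 d and cortex 48 h, with smaller changes. In the other cultures the estimates of Gclc and Gclm had opposite signs, and none passed. Its values in midbrain 13 d were 10.62, 10.72 and 10.65 at 3% O2 and 10.14, 10.02 and 10.21 at 21% O2. Cortex 48 h arrays read 11.11, 10.76 and 10.88 at 3% O2 against 10.49, 10.42 and 10.44. The groups were apart in both, with rises of 0.54 ± 0.07 (limma adjusted p = 7.64e-06) and 0.47 ± 0.07 (limma adjusted p = 0.000136). In midbrain 48 h Gclm read 10.00, 10.13 and 10.18 at 3% O2 and 10.25, 10.28 and 10.19 at 21% O2, and in cortex 13 d 10.31, 10.33 and 10.27 against 10.35, 10.38 and 10.37. In these cultures the low-oxygen arrays lay just below the others, by -0.14 ± 0.07 and -0.07 ± 0.07, and neither difference passed (limma adjusted p = 0.359 and 0.98).

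Gsr encodes glutathione reductase, which returns oxidized glutathione to its reduced form. Its probe set (10571274) read 10.17, 10.17 and 10.31 in midbrain 13 d at 3% O2 and 9.64, 9.72 and 9.73 at 21% O2. That rise of 0.52 ± 0.14, 1.43-fold, separated the groups fully (limma adjusted p = 0.00812). The cortex 48 h arrays read 10.75, 10.31 and 10.57 at 3% O2 and 10.52, 9.77 and 9.99 at 21% O2. Here the groups overlapped through replicate 1 at 21% O2, and the rise of 0.45 ± 0.14 passed narrowly (limma adjusted p = 0.0373). The call was lost without replicate 1 or 3 at 3% O2 (0.35 and 0.44, limma adjusted p = 0.177 and 0.0853) and without replicate 2 or 3 at 21% O2 (0.29 and 0.40, limma adjusted p = 0.215 and 0.146). Gsr values in midbrain 48 h were 9.37, 9.66 and 9.47 at 3% O2 against 9.73, 9.42 and 9.52, and in cortex 13 d 10.20, 10.01 and 10.19 against 10.29, 10.28 and 10.30. In cortex 13 d all low-oxygen arrays lay below the others (-0.155 ± 0.138). Neither difference passed (limma adjusted p = 0.896 and 0.958).

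Among the genes of the thioredoxin and peroxiredoxin branch, Srxn1 rose and Txnrd1 did not pass in the fit of all arrays. Srxn1 encodes sulfiredoxin, which repairs over-oxidized peroxiredoxins. Its probe set (10477061) read 8.91, 8.54 and 8.84 at 3% O2 and 7.82, 7.93 and 8.02 at 21% O2 in midbrain 13 d. The cortex 48 h values were 8.99, 8.56 and 8.64 against 8.06, 8.12 and 8.17. In both cultures every low-oxygen array was above every array at 21% O2, by 0.84 ± 0.11 (1.79-fold, limma adjusted p = 1.09e-05) and 0.62 ± 0.11 (1.53-fold, limma adjusted p = 0.000802). Srxn1 read 8.20, 8.34 and 8.45 against 8.53, 8.27 and 8.27 in midbrain 48 h, and 8.00, 8.17 and 8.02 against 8.11, 8.16 and 7.96 in cortex 13 d. The groups were intermixed there, with differences of -0.03 ± 0.11 and -0.01 ± 0.11.

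Txnrd1 encodes cytosolic thioredoxin reductase. Its probe set (10365260) read 9.64, 9.65 and 9.62 at 3% O2 and 9.53, 9.47 and 9.52 at 21% O2 in midbrain 13 d. Although these groups were apart, the difference of 0.13 ± 0.07 did not pass (limma adjusted p = 0.273), although it passed with array weights (0.12, limma adjusted p = 0.0225). In cortex 48 h Txnrd1 read 10.02, 9.81 and 9.85 against 10.14, 9.72 and 9.85, a difference of -0.01 with a 95% interval from -0.16 to 0.15. This interval lies below the Srxn1 and Gclm estimates of the same culture. In midbrain 48 h the values were 9.43, 9.50 and 9.47 against 9.54, 9.42 and 9.50, and in cortex 13 d 10.02, 10.01 and 10.09 against 10.19, 10.15 and 10.11. The cortex 13 d groups were apart, with the low-oxygen arrays below (-0.11 ± 0.07). Neither difference passed (limma adjusted p = 0.947 and 0.876).

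Hmox1, which encodes the inducible heme oxygenase that breaks down heme, had the largest response of the members in cortex 48 h. Its probe set (10572897) read 10.95, 10.30 and 10.35 at 3% O2 against 9.48, 9.21 and 9.26 at 21% O2, a rise of 1.22 ± 0.21 or 2.33-fold (limma adjusted p = 0.000694). Midbrain 13 d arrays read 9.63, 10.31 and 9.68 against 8.67, 8.79 and 8.85, a rise of 1.11 ± 0.21 or 2.15-fold (limma adjusted p = 0.000608). In both cultures the groups were apart, but 1 low-oxygen array stood above its neighbours, replicate 1 in cortex and replicate 2 in midbrain. In midbrain 48 h Hmox1 read 10.12, 10.77 and 11.15 against 10.58, 10.71 and 10.77. The low-oxygen arrays spread to both sides of the others there, and the difference was -0.01 with a 95% interval from -0.46 to 0.44. In cortex 13 d its values of 8.71, 9.11 and 8.94 at 3% O2 and 8.79, 9.03 and 8.73 at 21% O2 were intermixed (0.08 ± 0.21).

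Nqo1 encodes a quinone reductase that is widely used as an indicator of NRF2 activity, and it went the opposite way. Its probe set (10581538) read 8.02, 8.24 and 7.97 at 3% O2 and 8.74, 8.87 and 9.06 at 21% O2 in midbrain 13 d. All 3 low-oxygen arrays lay below the others, and the log2 level fell by 0.81 ± 0.20, a 1.76-fold decrease (limma adjusted p = 0.00516). In cortex 48 h Nqo1 read 7.98, 7.05 and 7.20 at 3% O2 against 7.93, 6.95 and 7.34 at 21% O2. Replicate 1 stood high at both oxygen levels, and the difference was 0.01 with a 95% interval from -0.42 to 0.43. Without both of these arrays it was -0.01. In midbrain 48 h the values were 6.00, 5.94 and 6.09 against 5.94, 5.86 and 5.78. Those of cortex 13 d were 6.22, 6.37 and 6.33 against 6.52, 6.71 and 6.41, where the low-oxygen arrays lay below the others without passing (-0.24 ± 0.20, limma adjusted p = 0.942).

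Of the regulators, Nfe2l2 mRNA (probe set 10483809) rose in midbrain 13 d, where it read 11.03, 10.60 and 10.96 at 3% O2 and 10.37, 10.43 and 10.47 at 21% O2. That rise was 0.44 ± 0.10, 1.36-fold (limma adjusted p = 0.00242), with the groups apart. In cortex 48 h, where 5 members rose, Nfe2l2 read 11.07, 11.21 and 11.08 against 11.20, 11.00 and 11.02. Those arrays were intermixed, and the difference of 0.05 had a 95% interval from -0.16 to 0.26. Midbrain 48 h gave 8.48, 8.55 and 8.77 against 8.92, 8.60 and 8.79, and cortex 13 d 10.14, 9.98 and 10.04 against 10.32, 10.21 and 10.24. The low-oxygen mean was the lower in both, by -0.17 ± 0.10 and -0.21 ± 0.10, and neither passed (limma adjusted p = 0.443 and 0.693). The cortex 13 d groups did not overlap.

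Keap1 (probe set 10591482) read 9.02, 9.15 and 9.05 at 3% O2 and 8.83, 8.88 and 8.95 at 21% O2 in midbrain 13 d. The groups were apart, but the difference of 0.19 ± 0.07 did not pass (limma adjusted p = 0.0669). It passed after quantile normalization (limma adjusted p = 0.0119) and with the 6 arrays of that culture alone (limma adjusted p = 0.0395). With array weights it passed too (0.14, limma adjusted p = 0.0159). Its values in cortex 48 h were 9.14, 8.81 and 8.82 against 8.81, 8.74 and 8.83, with replicate 1 at 3% O2 apart from the rest. In midbrain 48 h they were 8.26, 8.28 and 8.32 against 8.45, 8.39 and 8.27, and in cortex 13 d 8.70, 8.73 and 8.85 against 8.80, 8.79 and 8.74. With the deposited values and all arrays weighted alike, no Keap1 response passed in any of the 4 cultures. Osgin1 encodes an oxidative stress-induced growth inhibitor, and its probe set (10575873) stayed between 7.03 and 7.55 on all 24 arrays. At 3% O2 it read 7.22, 7.03 and 7.14 in midbrain 48 h, 7.37, 7.55 and 7.27 in midbrain 13 d, 7.27, 7.53 and 7.40 in cortex 48 h, and 7.26, 7.39 and 7.28 in cortex 13 d. At 21% O2 the values in the same order of cultures were 7.39, 7.43 and 7.30, then 7.26, 7.31 and 7.06, then 7.29, 7.15 and 7.14, and 7.15, 7.21 and 7.34. Its responses of -0.24, 0.19, 0.21 and 0.08 (each ± 0.08) did not pass, with limma adjusted p between 0.115 and 0.991. Without both replicate 1 arrays of cortex 48 h the Osgin1 response there was 0.33 and passed (limma adjusted p = 0.026). With array weights Osgin1 passed in midbrain 13 d (0.16, limma adjusted p = 0.0359) and cortex 48 h (0.30, limma adjusted p = 0.0029).

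**Figure D2:**
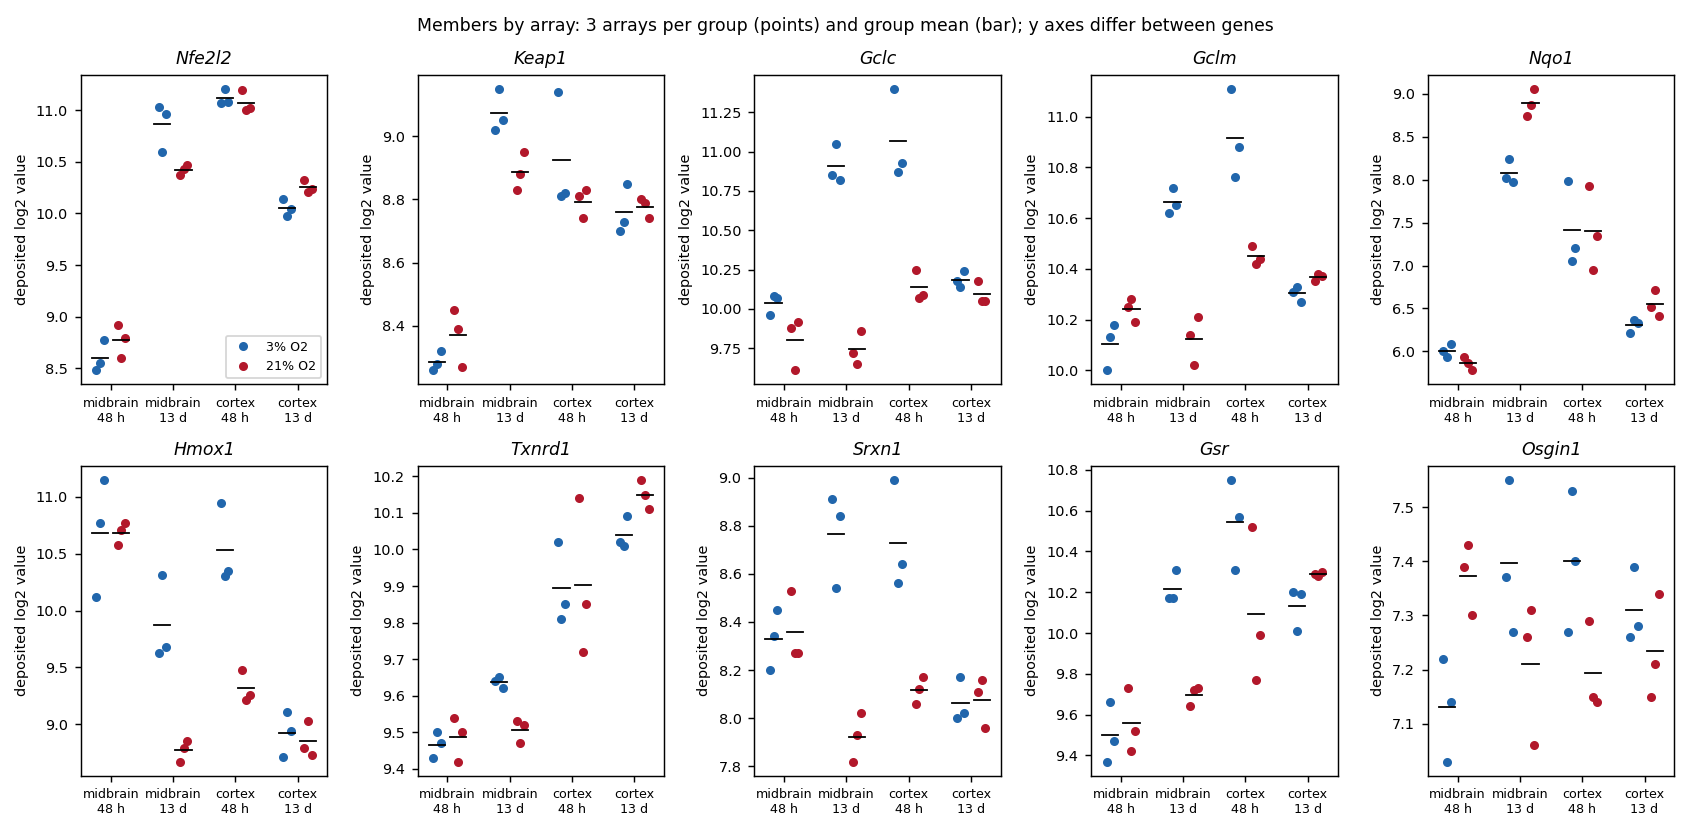
Deposited log2 value (y axis) of each member on all 24 arrays, by region and time (x axis), with 3 arrays per group as points, 3% O2 in blue, 21% O2 in red, and black bars for group means; y axes differ between genes. The blue points of Gclc, Gclm, Hmox1 and Srxn1 lie above the red points in midbrain 13 d and cortex 48 h, and those of Nqo1 lie below in midbrain 13 d.

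Whether the responses differed between cultures was tested directly. Midbrain 13 d was the only culture of run 1. In its differences from other cultures only a run effect equal at both oxygen levels cancels, so run cannot be told apart from time or region. The oxygen response was larger in midbrain 13 d than in midbrain 48 h for Nfe2l2, Gclc, Gclm, Hmox1, Srxn1 and Osgin1, 6 of 10 members against 6.86% of all probe sets. It was lower for Nqo1, 1 of 10 against 8.24%. For Gclc this difference was 0.93 ± 0.16 (limma adjusted p = 0.00041), and for Gclm 0.67 ± 0.10 (limma adjusted p = 9.33e-05). Within the cortex, with times as labelled, the order was the reverse: the responses of Gclc, Gclm, Hmox1 and Srxn1 were smaller at 13 d than at 48 h, 4 of 10 against 2.23% of all probe sets. The Gclc difference was -0.83 ± 0.16 (limma adjusted p = 0.00535) and the Hmox1 difference -1.15 ± 0.30 (limma adjusted p = 0.0376). The Hmox1 call was lost in 9 of the 12 fits that each left out 1 of the arrays involved, with adjusted p up to 0.104, and the Srxn1 call in 7 of 12. At 48 h, again with cortex times as labelled, the responses of Gclc, Gclm, Hmox1, Srxn1 and Osgin1 were smaller in midbrain than in cortex. These were 5 of 10 against 2.99% of all probe sets. With the arrays of the compared groups only, the calls of Gclc, Hmox1, Srxn1 and Osgin1 were lost (limma adjusted p = 0.0956, 0.0987, 0.084 and 0.0728). At 13 d, as labelled, the responses of Nfe2l2, Gclc, Gclm, Hmox1, Srxn1 and Gsr were larger in midbrain, 6 of 10 against 6.71%. With the replicate number as a block, Gsr also passed in the first 3 of these comparisons and Nqo1 in the last (-0.57, limma adjusted p = 0.00947).

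No member's response differed between midbrain 13 d and cortex 48 h in limma's test, in which 6.58% of all probe sets passed, with 2 members at an unadjusted p under 0.05. The 95% interval of that difference ran from -0.10 to 0.56 for Gclc, from -0.13 to 0.27 for Gclm, from -0.75 to 0.52 for Hmox1 and from -0.10 to 0.55 for Srxn1. Those intervals leave room for unequal responses. The 2 members were Nfe2l2, with a difference of 0.39 ± 0.14 (limma adjusted p = 0.111), and Nqo1, with -0.82 ± 0.29 (limma adjusted p = 0.0986). With the replicate number as a block Nqo1 passed (-0.82, limma adjusted p = 0.00307). It also passed without replicate 1 of cortex 48 h at 21% O2 (-1.08, limma adjusted p = 0.00774), and Nfe2l2 passed without replicate 2 of midbrain 13 d at 3% O2 (0.53, limma adjusted p = 0.0111). Between midbrain 48 h and cortex 13 d, 0 members passed in limma, 1 at an unadjusted p under 0.05, beside 0.0214% of all probe sets.

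The members also differed between cultures in their level at 21% O2. In run 2, midbrain 48 h was lower than cortex 48 h for 7 members and higher for 1, where 30.5% of all probe sets were lower and 24.3% higher. Nfe2l2 had the largest gap, with group means of 8.77 ± 0.16 (SD, n = 3) and 11.07 ± 0.11 (SD, n = 3), a difference of -2.30 ± 0.10 (SE, limma adjusted p = 1.52e-13). Nqo1 was lower by -1.55 ± 0.20 (limma adjusted p = 1.44e-06), and Gsr, Keap1, Txnrd1, Gclc and Gclm were lower by -0.53, -0.42, -0.42, -0.34 and -0.21. The Gclc call was lost without replicate 2 of midbrain 48 h (-0.24, limma adjusted p = 0.098) or replicate 1 of cortex 48 h (-0.28, limma adjusted p = 0.0626), and the Gclm call without replicate 3 of midbrain 48 h (limma adjusted p = 0.0552). Hmox1 was the exception, higher in midbrain 48 h by 1.37 ± 0.21 (limma adjusted p = 1.33e-05). From 48 h to 13 d in cortex, Nfe2l2 and Nqo1 were lower, by -0.81 ± 0.10 (limma adjusted p = 1.69e-06) and -0.86 ± 0.20 (limma adjusted p = 0.002), where 20.4% of probe sets were lower. Txnrd1 was higher by 0.25 ± 0.07 (limma adjusted p = 0.0111), where 16.8% were higher. This call was lost without replicate 2 or 3 of cortex 48 h (0.16 and 0.22, limma adjusted p = 0.0939 and 0.0519). In neither direction did the member count of this cortex comparison exceed the share of all probe sets in the fit of all arrays.

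Over all 8 groups, Nqo1 had the widest range of group means, 3.03 on the log2 scale. Its order ran from midbrain 13 d at 21% O2 (8.89 ± 0.16, SD, n = 3) through midbrain 13 d at 3% O2 (8.08 ± 0.14) and cortex 48 h (7.41 ± 0.50 at either oxygen level) to cortex 13 d (6.55 ± 0.15 at 21% O2, 6.31 ± 0.08 at 3% O2) and midbrain 48 h (6.01 ± 0.08 at 3% O2, 5.86 ± 0.08 at 21% O2). The array values of neighbours overlapped between midbrain 13 d at 3% O2 and cortex 48 h at 3% O2, within cortex 48 h and within midbrain 48 h. Nfe2l2 spanned 2.52, with cortex 48 h at the top, midbrain 13 d next (overlapping at 3% O2), cortex 13 d below and midbrain 48 h 1.28 below its nearest neighbour. Hmox1 spanned 1.92 and had its highest means in midbrain 48 h, 10.69 ± 0.09 at 21% O2 and 10.68 ± 0.52 at 3% O2. These overlapped with each other and with cortex 48 h at 3% O2 (10.53 ± 0.36), and the lowest 3 groups, from 8.92 to 8.77, overlapped too. The averaged levels of 17 microglia and macrophage markers were also highest in midbrain 48 h, 7.31 to 7.83 at 3% O2 and 7.64 to 7.78 at 21% O2, against 6.36 to 6.76 on all other arrays. The part of these markers in the Hmox1 level was not tested.

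For Gclc the highest means were cortex 48 h (11.07 ± 0.29) and midbrain 13 d (10.90 ± 0.13), both at 3% O2 and overlapping, and the next group lay 0.72 below. The other 6 Gclc means lay between 9.74 and 10.19, with array values that overlapped between neighbours except between midbrain 48 h at 3% and at 21% O2. Gclm had the same 2 groups on top, and Srxn1 had them in the other order. Gsr ranged over 1.04, Keap1 over 0.79, Txnrd1 over 0.68 and Osgin1 over 0.27. In Osgin1 every neighbouring pair of groups overlapped. Txnrd1 was highest in cortex 13 d, 10.15 ± 0.04 at 21% O2 and 10.04 ± 0.04 at 3% O2, and lowest in midbrain 48 h.

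**Figure D3:**
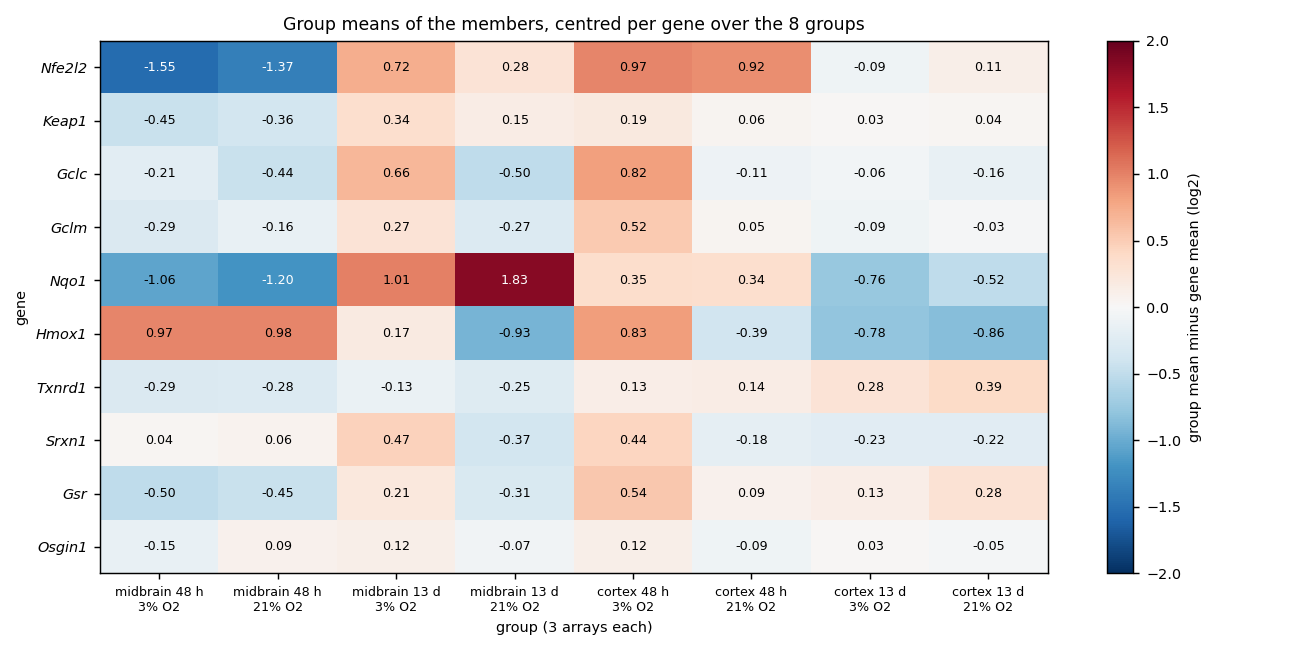
Group means of the members (rows, genes; columns, the 8 groups of 3 arrays), each minus the gene's mean over the 8 groups, in log2 units, with red above and blue below that mean. Nqo1 and Nfe2l2 vary most between cultures, and Gclc, Gclm and Srxn1 are reddest in midbrain 13 d and cortex 48 h at 3% O2.

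As a description over the 8 group means, Gclc and Gclm correlated at r = 0.93 and Nfe2l2 and Keap1 at 0.93. The correlation of Gclc with Srxn1 was 0.83, and that of Nqo1 with Gclc 0.24. Without the run 1 groups, over 6 group means, Gclc with Gclm gave 0.92, Nfe2l2 with Keap1 0.96 and Nqo1 with Gclc 0.72. These points share arrays and culture composition, and no p is given. The mean profile of the 8 target members, all but Nfe2l2 and Keap1, was most like those of Rhoj (r = 0.989), Ccdc80 (0.989), Adamtsl3 (0.986), Itpripl2 (0.985) and Copb1 (0.983) among 19986 probe sets. Rhoj, which encodes a small GTPase, averaged 10.24 in midbrain 13 d and 10.72 in cortex 48 h at 3% O2, and 8.79 to 9.51 in the other 6 groups.

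Other NRF2 target genes from a list were measured for 21 of 23 names. In midbrain 13 d 7 were higher and 2 lower in 3% O2, and in cortex 48 h 10 were higher and 1 lower, with list medians of 0.13 and 0.29. Over all probe sets 11.2% were higher and 12.7% lower in midbrain 13 d, and 6.25% and 6.08% in cortex 48 h. The lower counts of the list were near these shares. In midbrain 13 d the smallest p-values of the list belonged to Abcc1, an exporter of glutathione conjugates (1.13 ± 0.11, limma adjusted p = 1.8e-07), Ephx1, the microsomal epoxide hydrolase (1.11 ± 0.13), and Abcc4, another exporter (0.95 ± 0.11). In cortex 48 h they belonged to Slc7a11, the cystine and glutamate exchanger that supplies cysteine for glutathione (2.27 ± 0.17, limma adjusted p = 8.37e-08), Pir, which encodes pirin (1.31 ± 0.18), and Abcc4 (0.68 ± 0.11). Slc7a11 also rose in midbrain 13 d, by 0.65 ± 0.17 (limma adjusted p = 0.00644), and gave -0.17 ± 0.17 in midbrain 48 h and -0.37 ± 0.17 in cortex 13 d, neither of which passed. In these last cultures 0 of the 21 genes passed in limma, with 6 and 5 at an unadjusted p under 0.05. The cortex 48 h count of 10 fell to 4 without replicate 1 at 3% O2, to 6 without replicate 3 at 21% O2, and to 1 in a fit of these 6 arrays alone.

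Of 21 measured genes among 22 names of glutathione metabolism outside the members, 6 were higher and 2 lower in midbrain 13 d, and 5 were higher and 0 lower in cortex 48 h. Beside these, 11.2% of all probe sets were higher and 12.7% lower in midbrain 13 d, and 6.25% and 6.08% in cortex 48 h. Slc3a2, the heavy chain that pairs with the cystine exchanger, rose by 0.71 ± 0.06 in midbrain 13 d (limma adjusted p = 2.3e-08) and 0.58 ± 0.06 in cortex 48 h (limma adjusted p = 1.75e-06). Chac1, which encodes an enzyme that degrades glutathione, rose by 1.06 ± 0.16 and 1.28 ± 0.16. Gsto1, an omega-class glutathione transferase, rose by 0.59 ± 0.09 in midbrain 13 d, and Gpx3, the secreted glutathione peroxidase, by 0.98 ± 0.10 in cortex 48 h. The midbrain 13 d count was 4 without replicate 1 at 21% O2, 10 when only the 6 arrays of that culture were fitted, and 11 with array weights, where 4 were lower. In midbrain 48 h and cortex 13 d 0 of the 21 passed in limma, with 1 and 4 at an unadjusted p under 0.05.

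Among 15 partners and regulators of NRF2, 4 were higher and 3 lower in midbrain 13 d, and 2 were higher and 0 lower in cortex 48 h. These counts and those of the lists that follow stand beside shares over all probe sets. In midbrain 13 d 11.2% were higher and 12.7% lower, and in cortex 48 h 6.25% and 6.08%. Maff, a small MAF partner, rose by 0.73 ± 0.09 (limma adjusted p = 7.87e-06) and 0.52 ± 0.09 (limma adjusted p = 0.000797), and Mafg rose by 0.23 ± 0.07 in cortex 48 h (limma adjusted p = 0.0449). The cortex 48 h count was 1 without replicate 1 or 3 at 3% O2, or replicate 2 or 3 at 21% O2. Nfe2l1, which encodes the related factor NRF1, rose by 0.52 ± 0.08 in midbrain 13 d. Mafk was the 1 gene of this list that fell in midbrain 48 h (-0.27 ± 0.06, limma adjusted p = 0.0473), and it did not pass when any of that culture's 6 arrays was left out. Of 13 measured genes among 15 names of the thioredoxin system outside the members, 3 were higher and 2 lower in midbrain 13 d, and 3 were higher and 1 lower in cortex 48 h. The lower counts were near the shares of all probe sets. Txnrd3, another thioredoxin reductase, rose by 0.48 ± 0.07 (limma adjusted p = 5.16e-05) and 0.51 ± 0.07 (limma adjusted p = 9.18e-05), while Txnip, which encodes a thioredoxin inhibitor, fell by 1.29 ± 0.24 in midbrain 13 d and rose by 1.10 ± 0.24 in cortex 13 d (limma adjusted p = 0.0386). The latter call was lost when any of the 6 arrays of cortex 13 d was left out. Heme and iron genes other than Hmox1 gave 1 higher and 1 lower of 10 in midbrain 13 d and 0 higher and 1 lower in cortex 48 h. Those counts also lay near the shares of all probe sets. Tfrc, the transferrin receptor, rose by 1.05 ± 0.09 in midbrain 13 d (limma adjusted p = 6.23e-08), and Slc11a2, an iron transporter, fell by 0.39 ± 0.08 in cortex 48 h (limma adjusted p = 0.0034).

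**Figure D4:**
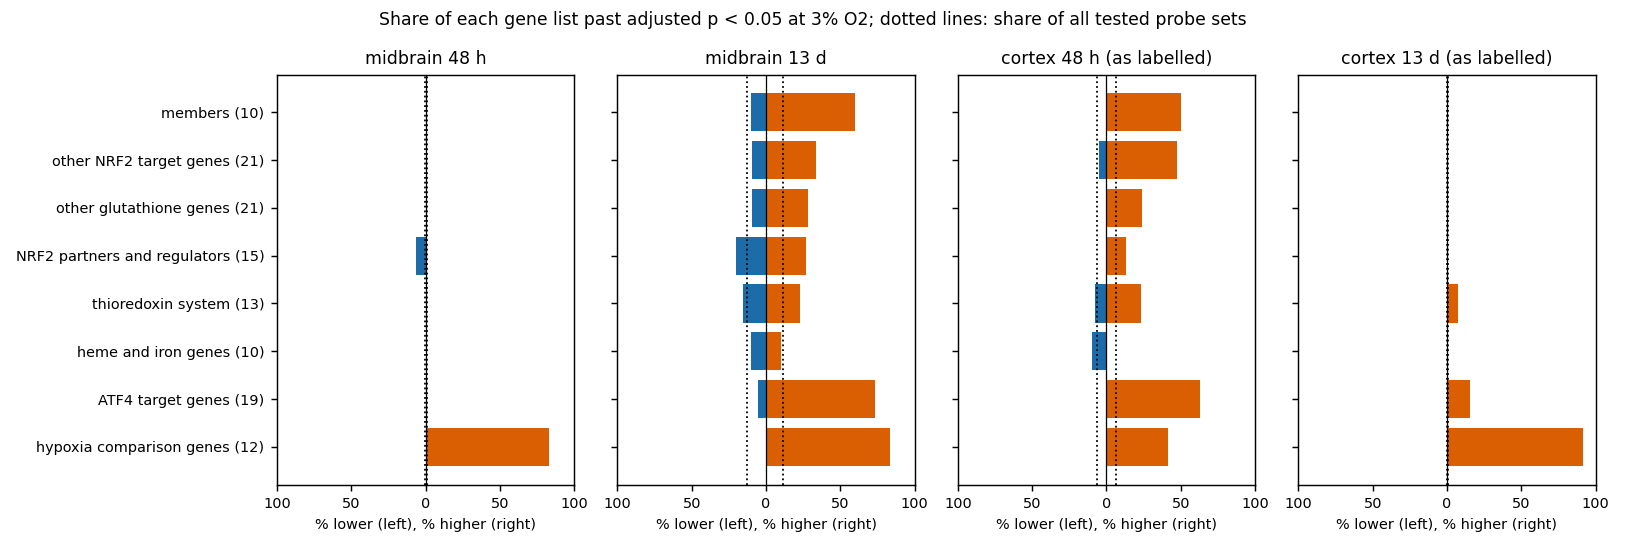
Share of each gene list (rows, with the number measured) that passed the limma test in 3% O2, as percent higher (orange, right) and percent lower (blue, left), in the 4 cultures; dotted lines give the share of all tested probe sets. The members and the ATF4 targets have long orange bars in midbrain 13 d and cortex 48 h, and the hypoxia comparison genes have them in every culture.

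A pair of comparison lists were read beside the family. The shares of all probe sets given with the members' counts apply to these lists too. Genes known to be induced by hypoxia, such as Ldha and Adm, were higher for 10 of 12 in midbrain 48 h, 10 in midbrain 13 d, 5 in cortex 48 h and 11 in cortex 13 d, with 0 lower. In fits of the 6 arrays of each culture alone these counts were 0, 11, 1 and 12, and 4 of all probe sets were higher in midbrain 48 h. Slc16a3, a lactate exporter, rose by 2.50 ± 0.30 in midbrain 48 h and 4.32 ± 0.30 in cortex 13 d. Targets of ATF4, the factor of the amino acid and integrated stress response, were higher for 14 of 19 and lower for 1 in midbrain 13 d, and higher for 12 and lower for 0 in cortex 48 h, where 6 were higher in a fit of the 6 arrays alone. They were higher for 0 in midbrain 48 h in limma, with 8 at an unadjusted p under 0.05, and for 3 in cortex 13 d. Their averaged level was 9.59 to 9.97 at 3% O2 against 8.90 to 8.97 at 21% O2 in midbrain 13 d, and 9.86 to 10.25 against 9.22 to 9.24 in cortex 48 h. Slc7a11 and Chac1 belong to this list as well, so the lists are not separate evidence. The part of the ATF4 targets in the members' responses was not tested.

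Some cell-type markers changed in the same cultures. Over all probe sets 11.2% were higher and 12.7% lower in midbrain 13 d, and 6.25% and 6.08% in cortex 48 h. The oligodendrocyte and astrocyte counts, and the microglia count in cortex 48 h, lay near these shares in the fit of all arrays. So did the lower neuron count and both neural stem and radial glia counts in midbrain 13 d. In midbrain 13 d neuron markers were higher for 3 of 15 and lower for 2, and neural stem and radial glia markers for 2 of 12 each way. Astrocyte markers were lower for 1 of 12 there, and for up to 7 under other settings. Endothelial markers were higher for 4 of 12 in midbrain 13 d, with averaged levels of 7.37 to 7.44 at 3% O2 against 6.76 to 6.88, and for 3 of 12 in cortex 48 h, 7.22 to 7.33 against 6.82 to 7.09. These counts were 2 without replicate 1 at either oxygen level in midbrain 13 d, and 1 without replicate 1 at 3% O2 or replicate 2 or 3 at 21% O2 in cortex 48 h. Pericyte, fibroblast and meningeal markers were higher for 5 of 12 in midbrain 13 d, 7.42 to 7.61 against 6.90 to 6.95, a count of 1 among brighter probe sets alone. Cell cycle genes were higher for 5 of 11 in midbrain 13 d, 10.98 to 11.10 against 10.73 to 10.81, and for 2 without replicate 1 or 3 at 3% O2 or replicate 2 at 21% O2, and for 3 without replicate 1 at 21% O2. Oligodendrocyte lineage markers were lower for 2 of 11 and higher for 1 there, 9.26 to 9.60 against 9.83 to 9.87, with 1 lower without replicate 2 at 3% O2 or any array at 21% O2. Neural stem and radial glia markers were lower for 5 of 12 and higher for 1 in cortex 48 h, 10.68 to 10.82 against 10.87 to 11.04. In cortex 48 h neuron markers were lower for 6 of 15 and higher for 1, and astrocyte markers were lower for 1 of 12. The neuron count was 3 without replicate 2 at 21% O2, and the astrocyte count was 5 without replicate 1 at 21% O2 and 0 without replicate 2 or 3 at either oxygen level. Among the astrocyte markers the averaged level ranged from 8.38 to 9.58 over the 3 arrays of cortex 48 h at 21% O2, wider than in any other group. Microglia and macrophage markers were higher for 0 of 17 in midbrain 13 d in limma, with 0 at an unadjusted p under 0.05, and for 1, P2ry12, in cortex 48 h. With the 6 cortex 48 h arrays alone, 0 endothelial markers were higher, and 1 neuron and 0 neural stem markers were lower. The part of these markers in the members' responses was not tested. Without both replicate 1 arrays of cortex 48 h, the responses there were 0.82 for Gclc, 0.39 for Gclm, 1.10 for Hmox1, 0.46 for Srxn1 and 0.56 for Gsr, and all 5 passed, with limma adjusted p up to 0.0105. In a fit of the 6 cortex 48 h arrays alone, Hmox1 was the 1 member that passed, and Gclc (limma adjusted p = 0.0504), Srxn1 (0.0715), Gclm (0.0788) and Gsr (0.349) did not.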

How the data were processed

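Total RNA was hybridised as biotin-labelled cDNA to 24 mouse gene arrays, 1 sample each, per the labels' protocols. The authors deposited log2 intensity values, called normalized per the labels, by a method not given in the sources used here. Arrays have no read depth, so their number limits the precision. Of 28856 probe sets, 21789 carried 1 gene symbol, 1621 several and 5446 none in the probe table; the 23410 with a symbol were tested.

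Limma 3.58.1 in R 4.3.3 (lmFit, eBayes) estimated 8 group means from the 24 arrays, leaving 16 degrees of freedom. It tested 4 oxygen responses, 6 differences between them and 2 level differences at 21% O2. The procedure was run on simulated arrays with normal noise and effects added in a single group. These lacked the culture differences and outlying arrays of the data, so the run checks the code only. Members and gene lists were chosen with earlier results of these data known. All members were named, and from each other list the 3 genes with the smallest p in a comparison, plus their values in other comparisons. Profile likeness was Pearson's r over group means.

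Same-numbered samples deviated together in midbrain (correlations of 0.12 to 0.24 at 48 h and 0.12 to 0.42 at 13 d). Number 1 of midbrain 13 d, however, reached 0.16 with another number. In cortex 48 h numbers 1 and 2 also deviated together (0.29 and 0.42), although number 2 reached 0.35 with another number. Number 3 of that culture did not (-0.04). Cortex 13 d gave -0.01, 0.23 and -0.37 for the same numbers, beside 0.21, 0.20 and 0.33 as the highest with another number. The tests have no replicate block; blocked values are given where they change a call. Sequences are RefSeq's.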

Additional observations from a re-analysis of the deposited data

Results flagged for a closer look

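The oxygen responses of members differed between cultures by limma's test of the difference itself in 22 cases, with values on the log2 scale. Midbrain 13 d minus midbrain 48 h gave 0.61 for Nfe2l2, 0.93 for Gclc, 0.67 for Gclm, -0.96 for Nqo1, 1.11 for Hmox1, 0.87 for Srxn1 and 0.43 for Osgin1. The Osgin1 call was lost without replicate 2 of either group at 3% O2 or replicate 3 of midbrain 13 d at 21% O2 (0.38, 0.35 and 0.35, limma adjusted p up to 0.0589). Cortex 13 d minus cortex 48 h gave -0.83 for Gclc, -0.53 for Gclm, -1.15 for Hmox1 and -0.63 for Srxn1. The Hmox1 call held only without replicate 2 or 3 of cortex 48 h at 3% O2, or replicate 1 at 21% O2, among the 12 fits leaving out 1 array. Midbrain 48 h minus cortex 48 h gave -0.69 for Gclc, -0.60 for Gclm, -1.23 for Hmox1, -0.64 for Srxn1 and -0.45 for Osgin1. Here the Hmox1 call was lost without replicate 1 at 3% O2 or 3 at 21% O2 of cortex 48 h (-1.02 and -1.20, limma adjusted p = 0.0531 and 0.0539), and the Srxn1 call without replicate 1 of midbrain 48 h at 3% O2 (-0.58, limma adjusted p = 0.0521). That of Osgin1 was lost without replicate 2 of any of the 4 groups, replicate 1 of midbrain 48 h at 21% O2 or replicate 3 of cortex 48 h at 21% O2, with limma adjusted p up to 0.0786. With the arrays of these 4 groups alone, only the Gclm call held in this comparison. Midbrain 13 d minus cortex 13 d gave 0.65 for Nfe2l2, 1.07 for Gclc, 0.60 for Gclm, 1.03 for Hmox1, 0.85 for Srxn1 and 0.68 for Gsr. Hmox1 lost its call without replicate 2 at 3% O2 or 1 or 2 at 21% O2 of midbrain 13 d, or replicate 1 at 3% O2 or 2 at 21% O2 of cortex 13 d, and Gsr without replicate 3 at 3% O2 or 1 at 21% O2 of midbrain 13 d, or replicate 2 at 3% O2 or 3 at 21% O2 of cortex 13 d, with limma adjusted p up to 0.0766 and 0.071. These 4 comparisons share groups and are not separate evidence. Those with midbrain 13 d also set run 1 against run 2.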

How the results depend on the processing

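Over all alternatives and all comparisons, single-member results kept their call, or the lack of it, in 1945 cases, gained a call in 47 and lost it in 64. The sign changed in 70 of the 1945, from 23 results such as Nqo1 in cortex 48 h and Hmox1 in midbrain 48 h, and in 0 of these was the value called in either fit. Counts of members moved by over 1.5 times as follows, and the cause was not tested unless named. With brighter probe sets only, which leaves out Nqo1 and Osgin1, the lower count was 0 in midbrain 13 d, 0 for midbrain 13 d minus midbrain 48 h, and 1 for the level of cortex 13 d minus cortex 48 h. With the arrays of the compared groups only, which leaves fewer samples, cortex 48 h had 1 higher, midbrain 48 h minus cortex 48 h 1 lower, midbrain 13 d minus cortex 13 d 1 lower, and the level of cortex 13 d minus cortex 48 h 0 higher. Array weights gave 1 lower for midbrain 13 d minus cortex 13 d, 2 higher and 1 lower for midbrain 13 d minus cortex 48 h, and 2 higher for each level comparison. They also raised the higher count in midbrain 13 d from 6 to 9. Quantile normalization gave 2 higher for the level of midbrain 48 h minus cortex 48 h. Without both number 1 arrays of cortex 48 h, midbrain 13 d minus cortex 48 h had 1 lower and each level comparison 2 higher.

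With the replicate number as a block, 1 member was lower for midbrain 13 d minus cortex 13 d (Nqo1, -0.57, limma adjusted p = 0.00947) and 1 for midbrain 13 d minus cortex 48 h (Nqo1, -0.82, limma adjusted p = 0.00307). The block also added Gsr for midbrain 13 d minus midbrain 48 h (0.58, limma adjusted p = 0.013), cortex 13 d minus cortex 48 h (-0.61, limma adjusted p = 0.0222) and midbrain 48 h minus cortex 48 h (-0.51, limma adjusted p = 0.0413), and changed no other member call.

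Leaving out 1 array at a time, members counted ranged from 5 to 7 higher and 0 to 1 lower for midbrain 13 d minus midbrain 48 h, 2 to 5 lower for cortex 13 d minus cortex 48 h, 3 to 6 lower for midbrain 48 h minus cortex 48 h, 4 to 6 higher for midbrain 13 d minus cortex 13 d, and 0 to 1 each way for midbrain 13 d minus cortex 48 h. Level counts ranged from 1 to 2 higher and 6 to 7 lower for midbrain 48 h minus cortex 48 h, and 0 to 2 higher for cortex 13 d minus cortex 48 h. In these fits the Nqo1 difference between midbrain times lost its call without replicate 3 of any of the 4 groups or replicate 1 of midbrain 13 d at 3% O2, with adjusted p up to 0.0717. The 7 arrays that ended the Srxn1 call between cortex times were replicate 1 at 3% O2 and replicates 2 and 3 at 21% O2 of cortex 48 h, and replicates 1 and 3 at 3% O2 and 1 and 2 at 21% O2 of cortex 13 d. Calls gained in these fits were those of Gsr for midbrain 13 d minus midbrain 48 h (without replicate 2 of midbrain 48 h at either oxygen level), cortex 13 d minus cortex 48 h (without replicate 2 at 3% O2 or 1 at 21% O2 of cortex 48 h), and, without replicate 1 of cortex 48 h at 21% O2, midbrain 48 h minus cortex 48 h and the cortex level comparison. That array also decided Osgin1 in the other level comparison, and Keap1 passed for midbrain 13 d minus midbrain 48 h without replicate 3 of midbrain 48 h at 21% O2. The oxygen-response counts stayed at 6 higher and 1 lower in midbrain 13 d and 4 to 5 higher in cortex 48 h. Signal over background cannot be read from the deposited values, so a low probe set such as that of Osgin1 may sit near background. The counts of the other gene lists under these alternatives were added after seeing the data.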
